A study of Mus musculus with 26 samples.

Results

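The comparison described here is HMCES-KO against WT mouse embryonic stem cells under activin A, with all 12608 testable genes of the transcriptome as its subject. It uses 4 of the 26 RNA-sequencing libraries of the series. They are HMCES-KO1 and HMCES-KO2, which are 1 library from each of a pair of knockout lines, and WT replicates 1 and 2. All 4 came from C57BL/6 cells grown on gelatin in medium with 15% serum and exposed to 50 ng/ml activin A for 2 h, so the serum and the activin A are shared by knockout and wild type. TIANGEN reagents served for RNA purification and a TruSeq RNA kit for library construction. The same lines were also profiled with BMP4 at 10 ng/ml, SB431542 at 10 µM or LDN193189 at 50 nM for 2 h (12 libraries). Another 10 libraries came from untreated cells. Their titles name no knockout line for the TPM values, whose knockout columns are named K81 and K82. The titles do not match the line names KO7 and KO8 used in the counts. Each treated knockout line is represented by 1 library, so the spread between the knockout libraries holds the difference between lines as well as that between samples. Nothing in the labels says that the libraries of a group came from separate cultures, and the p-values then measure only the spread between these samples, which may be technical. How the lines were made and which part of Hmces was removed are not given in the sources used here.

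HMCES is a protein that recognises abasic sites in single-stranded DNA and forms a covalent cross-link with them, which shields the lesion during replication. Activin A is a ligand of the TGF-beta superfamily that shares its type I receptors with Nodal. Receptor activation phosphorylates SMAD2 and SMAD3, which join SMAD4 and enter the nucleus, where they raise feedback inhibitors such as Lefty1 and Lefty2. BMP ligands act through other type I receptors and SMAD1 and SMAD5, whose best known targets in embryonic stem cells are the Id genes. SB431542 blocks the activin and Nodal receptors, and LDN193189 blocks BMP receptors.

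Levels are the authors' TPM (reads per gene length, scaled to a common sum in each library), so levels of different genes can be compared. Differences are HMCES-KO minus WT on the log2(TPM + 1) scale with their standard error, from a limma fit of 16 treated libraries in which the activin A contrast has n = 2 in each genotype. The fit takes KO2 minus KO1 in each treatment as separate spread, though the same lines recur. These differences correlated at 0.227 to 0.323 between treatments, so the p-values rest on fewer independent values than the fit assumes. With the 4 activin A libraries alone, 1136 genes were called. A gene is called where the p-value, adjusted over 12608 genes by Benjamini and Hochberg, is under 0.05. The reads recovered from the TPM values came to 4501771 in KO1 and 4330422 in KO2, against 4832581 in WT1 and 4767952 in WT2. All 9 embryonic stem cell markers examined, among them Pou5f1 and Sox2, were above 1 TPM in every library. Their summed levels were 24152 and 22665 TPM in HMCES-KO and 23415 and 23141 TPM in WT.

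Of the 12608 genes, 1529 (12.1%) were called between HMCES-KO and WT under activin A. HMCES-KO cells had higher levels of 643 genes (5.1%) and lower levels of 886 genes (7.03%), and the difference was at least 2-fold for 157 of the higher and 294 of the lower genes. The median over all genes was -0.04. With only genes of a mean of at least 5 TPM tested, 1616 genes were called. These are more calls from fewer genes, so 12.1% is a low background for lists of highly expressed genes. No share matched for level was computed. With libraries scaled by the median of ratios in place of the sum, 751 genes were higher and 770 lower, so the excess of lower calls rests on the scaling. The count also rests on having all 4 libraries: it was 699 without KO1, 708 without KO2, 577 without WT1 and 508 without WT2, and 331 genes (118 higher and 213 lower) were called the same way in each of these 4 fits. A call is termed stable below where the gene was called the same way in each of these 4 fits. That says nothing about the other treatments. For 7311 genes (58%) the HMCES-KO and WT libraries did not overlap. All 1529 called genes were among these, so non-overlap says nothing further about a called gene.

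**Figure D1:**
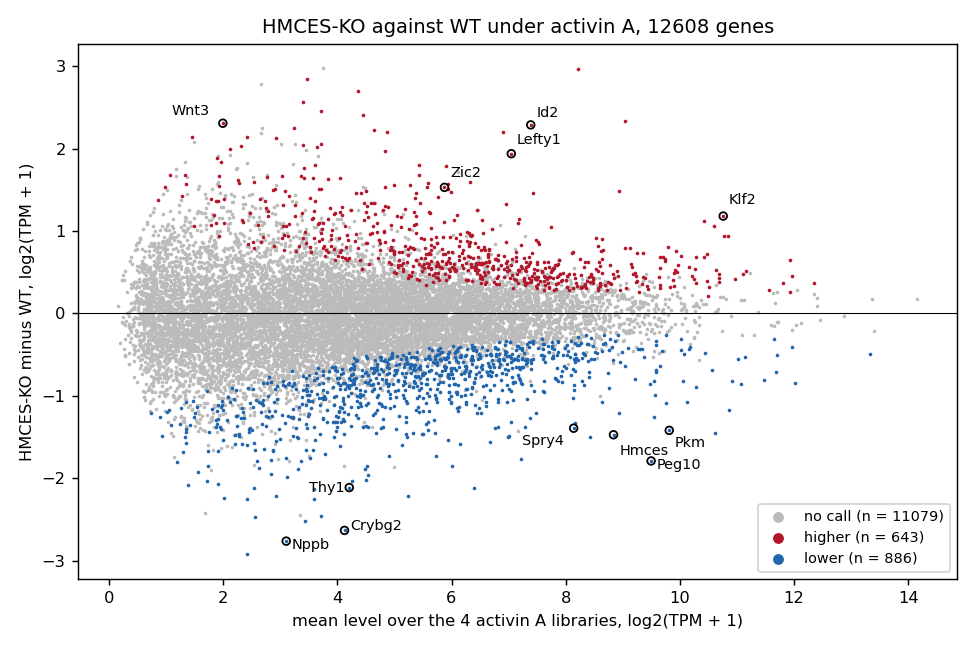
Each point is 1 of 12608 genes, with its mean level over the 4 activin A libraries on the x axis, as log2(TPM + 1), and HMCES-KO minus WT on the y axis; red genes were called higher, blue genes lower and grey genes were not called. The 643 higher and 886 lower genes are spread over the whole range of levels, with Id2 and Lefty1 among the upper and Nppb, Crybg2 and Thy1 among the lower points.

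Hmces itself was lower in both knockout libraries. Its level was 341 TPM in KO1 and 165 TPM in KO2, against 663 TPM in WT1 and 656 TPM in WT2, which is 51.7% and 25% of the WT mean. The transcript was reduced and still detected in each line. The difference was -1.47 ± 0.42 (adjusted p = 0.038), and KO2 minus KO1 was -1.04 ± 0.08 (adjusted p = 0.00092). That last value sets 1 library against 1, and its error comes only from the spread between pairs of WT libraries. The call against WT was lost without KO2 (adjusted p = 0.26), without WT1 (0.15) and without WT2 (0.15), and in a fit with no trend of variance on level (0.081).

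The genes with the largest rises belonged to no single group. Atp5mpl, a small subunit of the mitochondrial ATP synthase, had 837 and 926 TPM in KO1 and KO2, against 164 and 183 TPM in WT1 and WT2 (2.34 ± 0.24, adjusted p = 0.00018). The call was stable. Gap43, a growth cone protein of neurons, had 223 and 165 TPM in HMCES-KO, against 34.0 and 49.2 TPM in WT (2.20 ± 0.25, adjusted p = 0.00024). Stable rises from low levels were seen for Snrpf, a core protein of spliceosomal particles, with 15.1 and 21.5 TPM in HMCES-KO against 1.34 and 2.02 TPM in WT. They were also seen for Psma5, a subunit of the proteasome core, with 30.9 and 36.0 against 1.74 and 9.23 TPM. The metalloprotease subunit gene Mep1b had 37.3 and 42.7 TPM in HMCES-KO and 6.03 and 9.91 TPM in WT. Fam166a and Glod5 were also stable, at 2.41 ± 0.28 and 2.45 ± 0.44, and Id2 is described with the BMP targets. The calls of Vrtn, R3hdml and Wnt3 were not stable: without WT2 their adjusted p was 0.21, 0.29 and 0.16, without KO1 it was 0.17, 0.21 and 0.12, and without KO2 or WT1 it was 0.13 in both cases for Vrtn and 0.075 and 0.055 for Wnt3.

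Among the largest falls, Wnt6 and Crybg2 had the highest WT levels. Wnt6, a secreted Wnt ligand, had 15.7 and 9.56 TPM in KO1 and KO2, against 70.3 and 51.9 TPM in WT1 and WT2 (-2.21 ± 0.41, adjusted p = 0.0047). Crybg2, a gene of the beta/gamma-crystallin domain family, had 2.56 and 5.52 TPM in HMCES-KO and 27.6 and 30.1 TPM in WT (-2.63 ± 0.41, adjusted p = 0.0018). Both calls were stable. Nppb, which encodes a natriuretic peptide, had 1.52 and 0.791 TPM in HMCES-KO and 18.4 and 9.67 TPM in WT (-2.76 ± 0.49, adjusted p = 0.0036). Ripply3, a transcriptional co-repressor, had 1.16 and 3.63 against 15.0 and 19.3 TPM. Rec114, which is needed for meiotic double-strand breaks, had 1.12 and 2.34 against 13.6 and 9.36 TPM. Hacd2, an enzyme of fatty acid elongation, had 0.329 and 1.54 against 7.34 and 8.22 TPM. These falls were stable too. Tarm1 had no reads in either knockout library and 4 and 22 reads in WT1 and WT2. Taking 3 reads in each knockout library as the floor, it was at least 4.15-fold lower in HMCES-KO. Its call was lost without KO1 (adjusted p = 0.12), without KO2 (0.12) and without WT2 (0.27). Mlana, Rhox10, Syce3, Cd79b and Prr23a2 complete the 12 largest falls, rest on at most 34 reads in any library, and were each lost without at least 2 of the 4 libraries, with adjusted p up to 0.25, 0.33, 0.30, 0.12 and 0.11.

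Several of the genes above have processed pseudogenes that could share their reads, and the sources used here do not say how multiply mapping reads were counted. Transcripts annotated as pseudogenes that match the gene at 95% identity or more over at least 200 bases numbered 2 for Psma5 and 1 each for Snrpf and Hacd2, so their values are uncertain. Of the 988 tested genes with such a copy, 175 were called (17.7%), against 1344 of the 11509 genes without one (11.7%). The part of shared reads in these calls was not tested.

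The ligands of the TGF-beta family split between higher and lower in HMCES-KO. Of 25 ligands and antagonists tested, 4 were called higher and 2 lower (24% called, beside 12.1% of all genes), with a median of 0.00. Bmp4, the BMP ligand, had 492 and 525 TPM in KO1 and KO2, against 935 and 899 TPM in WT1 and WT2 (-0.85 ± 0.08, adjusted p = 8.1e-05). Gdf3, a relative of Nodal made by pluripotent cells, had 1274 and 1289 TPM in HMCES-KO and 789 and 788 TPM in WT (0.70 ± 0.08, adjusted p = 0.00037). Both were stable, with knockout libraries close to each other. Gdf1, a partner of Nodal, had 28.5 and 32.3 TPM in HMCES-KO and 13.3 and 17.1 TPM in WT, and Tgfb1 had 32.2 and 28.5 TPM in HMCES-KO and 51.5 and 47.4 TPM in WT. These calls were lost without KO2 (adjusted p = 0.087 for Gdf1 and 0.077 for Tgfb1) and without WT1 (0.12 and 0.081). Nodal had 316 and 350 TPM in HMCES-KO and 372 and 394 TPM in WT and was not called (-0.20 ± 0.09, adjusted p = 0.17).

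Among 14 receptors and co-receptors, Tdgf1 was called higher and Acvr1b and Tgfbr2 lower (21.4% called, beside 12.1% of all genes, median 0.07). Tdgf1, also known as Cripto, is the co-receptor that Nodal needs. It had 90.1 and 90.8 TPM in HMCES-KO and 31.3 and 28.4 TPM in WT (1.57 ± 0.28, adjusted p = 0.0038), a stable call, though it has 1 pseudogene copy. Acvr1b, the main type I receptor for activin and Nodal, had 5.68 and 4.80 TPM in HMCES-KO and 10.8 and 9.82 TPM in WT (-0.86 ± 0.25, adjusted p = 0.041). Tgfbr2, the type II receptor for TGF-beta, had 0.495 and 0.258 TPM in HMCES-KO and 2.64 and 2.79 TPM in WT. Leaving out any 1 of the 4 libraries ended both receptor calls, with adjusted p from 0.095 to 0.18 for Acvr1b and from 0.071 to 0.12 for Tgfbr2. Of 22 SMADs and SMAD partners, none was called higher and 3 were called lower (median -0.06), which became 1 higher and 2 lower with libraries scaled by the median of ratios. The 3 are 13.6% of the list, near the 12.1% of all genes called, and are no result about the list. They were Ski, a SMAD co-repressor, Trim33, a SMAD4-binding ubiquitin ligase, and Ppm1a, a SMAD phosphatase, and none was stable. Ski had 115 and 93.2 TPM in HMCES-KO and 158 and 154 TPM in WT, with adjusted p = 0.026, which became 0.18 without KO2, 0.13 without WT1 and 0.11 without WT2. Trim33 reached 0.27 without WT2, 0.14 without KO2 and 0.11 without KO1, and Ppm1a 0.27, 0.060, 0.23 and 0.13 without KO1, KO2, WT1 and WT2. The inhibitory Smad7 had 136 TPM in both knockout libraries and 176 and 184 TPM in WT, which was not called (adjusted p = 0.24).

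Among 27 genes known as targets of Nodal or activin through SMAD2 and SMAD3, 25.9% were called, beside 12.1% of all genes. In HMCES-KO 6 were higher, 1 was lower and 20 were not called (median 0.14). Lefty2, a secreted Nodal antagonist, had 170 and 182 TPM in KO1 and KO2, against 66.9 and 72.5 TPM in WT1 and WT2 (1.33 ± 0.21, adjusted p = 0.0021). Its relative Lefty1 had 188 and 229 TPM in HMCES-KO, against 54.9 and 52.2 TPM in WT (1.94 ± 0.39, adjusted p = 0.0073). The knockout libraries lay far above the WT libraries in both genes. Lefty2 was stable, while the call of Lefty1 was lost without KO2 (adjusted p = 0.055) and without WT2 (0.057). These paralogues are alike in sequence and may share reads. Ccn2, a matricellular protein, had 70.2 and 87.4 TPM in HMCES-KO and 39.4 and 32.7 TPM in WT. Wnt3, a ligand of the early primitive streak, had 6.35 and 4.82 TPM in HMCES-KO and 0.747 and 0 TPM in WT. Leaving out any 1 library ended both calls, with adjusted p from 0.062 to 0.16 for Ccn2 and from 0.055 to 0.16 for Wnt3. Tdgf1 was also among the higher genes, and the lower one was Ski. Without 1 library at a time the list held 2 to 3 higher calls. Trh, the member with the highest level, had 3961 and 2860 TPM in HMCES-KO and 3204 and 2978 TPM in WT, and was not called.

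Of 17 BMP targets, 1 was called in each direction (median 0.30), a share of 11.8% that is near the 12.1% of all genes. Id2, an inhibitor of basic helix-loop-helix factors, had 275 and 279 TPM in HMCES-KO, against 56.1 and 55.8 TPM in WT (2.29 ± 0.22, adjusted p = 8.6e-05). Klf4, a zinc finger factor of the naive state, had 567 and 453 TPM in HMCES-KO and 1051 and 959 TPM in WT (-0.99 ± 0.14, adjusted p = 0.0010). Both were stable. The other Id genes were not called. Id1 had 1708 and 1439 TPM in HMCES-KO and 1537 and 1564 TPM in WT (0.02 ± 0.15, adjusted p = 0.96). Id3 had 132 and 173 TPM in HMCES-KO and 99.2 and 102 TPM in WT (adjusted p = 0.068).

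The promoters of Wnt3, Id2 and Bmp4 are shown because Wnt3 and Id2 had the largest rises in the activin and BMP target lists and Bmp4 was the ligand with the lowest adjusted p. Each runs from 250 bases before the gene's start to 50 bases after it, is written 5′ to 3′ on the gene's strand, and comes from RefSeq on GRCm38.p6. Capitals mark CAGAC, the SMAD box, and GGCGCC, a GC-rich element bound by SMAD1 and SMAD5, searched on both strands.
Wnt3 promoter, chr11:103773925-103774224, plus strand: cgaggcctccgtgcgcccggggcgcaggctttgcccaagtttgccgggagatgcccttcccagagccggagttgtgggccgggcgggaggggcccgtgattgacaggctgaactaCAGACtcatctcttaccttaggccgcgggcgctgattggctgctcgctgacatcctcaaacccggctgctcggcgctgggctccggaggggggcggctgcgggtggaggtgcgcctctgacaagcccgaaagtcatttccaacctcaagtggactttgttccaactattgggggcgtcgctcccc
Id2 promoter, chr12:25096043-25096342, minus strand: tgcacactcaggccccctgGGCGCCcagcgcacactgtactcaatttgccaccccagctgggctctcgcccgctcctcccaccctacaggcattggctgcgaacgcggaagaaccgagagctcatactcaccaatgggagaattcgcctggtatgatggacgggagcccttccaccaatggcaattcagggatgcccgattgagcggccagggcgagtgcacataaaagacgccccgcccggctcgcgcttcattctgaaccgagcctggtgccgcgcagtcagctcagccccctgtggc
Bmp4 promoter, chr14:46390620-46390919, minus strand: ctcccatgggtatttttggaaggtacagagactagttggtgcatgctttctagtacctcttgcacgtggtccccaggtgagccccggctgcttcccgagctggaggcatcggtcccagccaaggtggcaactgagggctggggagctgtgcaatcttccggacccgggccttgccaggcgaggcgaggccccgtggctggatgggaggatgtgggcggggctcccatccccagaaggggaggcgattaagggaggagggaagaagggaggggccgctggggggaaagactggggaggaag

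The Wnt3 promoter held 1 CAGAC and no GGCGCC, the Id2 promoter 1 GGCGCC and no CAGAC, and the Bmp4 promoter neither. Of 32851 promoters of the same length, 49.6% held CAGAC on either strand and 11.9% held GGCGCC, so the matches describe the sequences and mark no binding site.

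**Figure D2:**
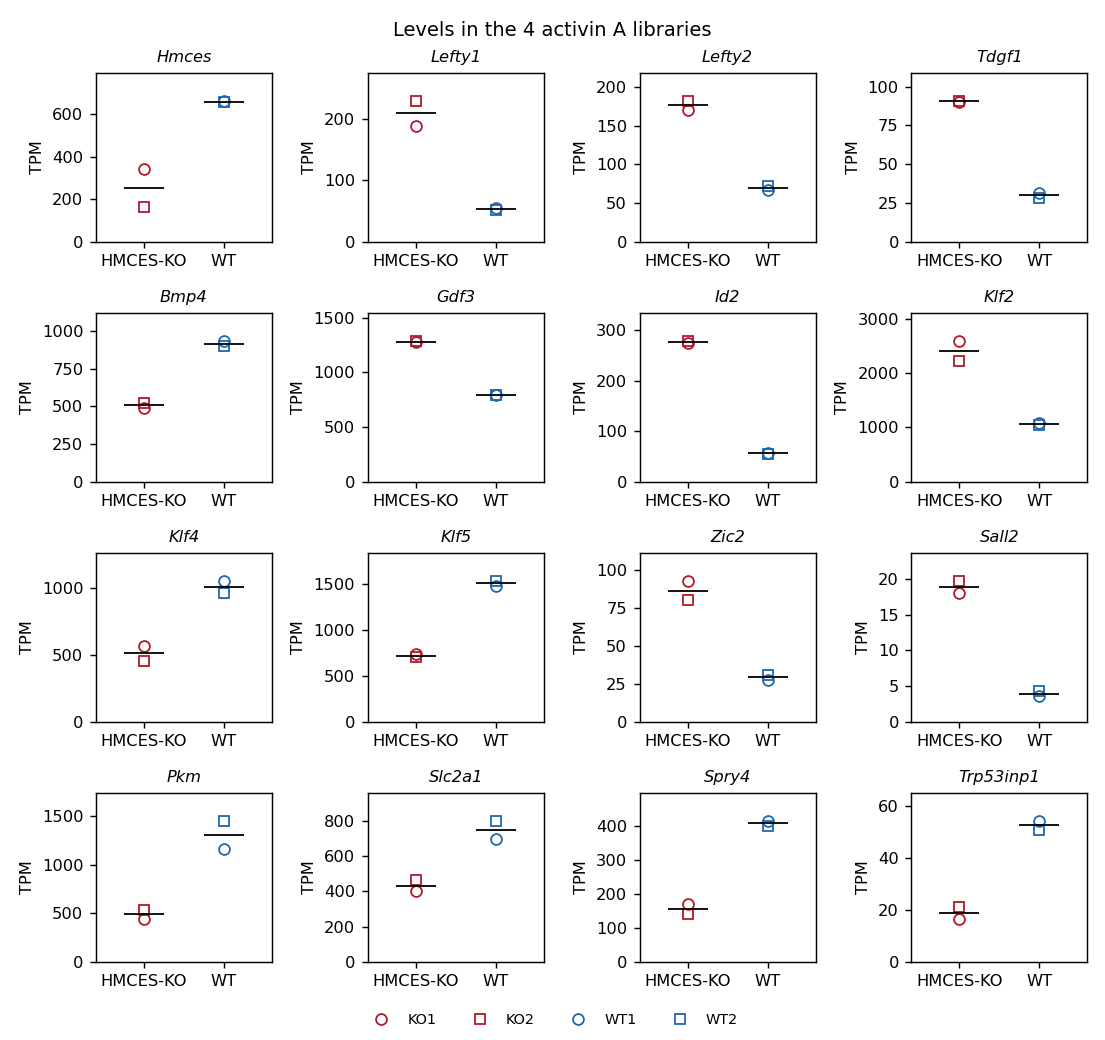
Levels in TPM (y axis) of 16 genes in the 4 activin A libraries, with HMCES-KO left of WT; circles are KO1 and WT1, squares are KO2 and WT2, and bars are group means. In each panel the knockout points lie wholly above or wholly below the WT points, as they do for every called gene. Examples are Id2 (275 and 279 against 56.1 and 55.8 TPM) and Bmp4 (492 and 525 against 935 and 899 TPM). Hmces is the gene whose knockout points are furthest apart relative to their level.

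The core pluripotency factors did not pass the test, while several factors of the naive state changed. Pou5f1 had 5808 and 5507 TPM in KO1 and KO2, against 4907 and 4700 TPM in WT1 and WT2 (adjusted p = 0.095). Sox2 had 2689 and 2600 TPM in HMCES-KO and 2565 and 2664 TPM in WT (0.92), and Nanog had 1099 and 1049 TPM in HMCES-KO and 1051 and 1015 TPM in WT (0.75). Of 17 general pluripotency genes, 4 were higher and 1 was lower (29.4% called, beside 12.1% of all genes, median 0.02). The stable rises were Gdf3, Tdgf1 and Trim28, a co-repressor that silences retroelements, with 1840 and 1897 TPM in HMCES-KO and 1437 and 1432 TPM in WT (0.38 ± 0.07, adjusted p = 0.0031). L1td1, an RNA-binding protein, was lost without WT1 (adjusted p = 0.055). The repressor gene Zfp281, the lower one, was lost without any 1 library (0.085 to 0.14).

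Of 19 naive pluripotency genes, 4 were lower and 2 higher (31.6% called, beside 12.1% of all genes), with a median of -0.37. The Kruppel-like factors went both ways. Klf2 had 2591 and 2223 TPM in HMCES-KO, against 1072 and 1044 TPM in WT (1.18 ± 0.14, adjusted p = 0.00037). Klf5 had 735 and 698 TPM in HMCES-KO, against 1476 and 1531 TPM in WT (-1.07 ± 0.11, adjusted p = 0.00019), and Klf4 fell as given above. Nr5a2, a nuclear receptor that binds the Pou5f1 promoter, had 44.6 and 44.9 TPM in HMCES-KO and 90.5 and 85.2 TPM in WT (-0.96 ± 0.12). The dioxygenase gene Tet2 had 61.8 and 41.1 TPM in HMCES-KO and 154 and 146 TPM in WT (-1.56 ± 0.29). All of these were stable under activin A. Under BMP4 and LDN193189 the HMCES-KO mean of Tet2 was 98.7% and 97.1% of the WT mean. It was 210% and 223% for Klf2 and 66.6% and 61.1% for Klf5. Dppa3, an oocyte factor that guards maternal methylation, had 11.3 and 24.9 TPM in HMCES-KO and 5.15 and 3.25 TPM in WT, and its call was lost without KO2 (adjusted p = 0.27), WT1 (0.10), WT2 (0.23) or KO1 (0.050).

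Of 17 genes of the formative and primed states, 5 were higher and 1 was lower (35.3% called, beside 12.1% of all genes, median 0.26). Zic2, a zinc finger factor of the early neural plate, had 92.7 and 79.8 TPM in HMCES-KO, against 27.5 and 30.8 TPM in WT (1.53 ± 0.13, adjusted p = 7.3e-05). Sall2, a spalt-like zinc finger factor, had 18.1 and 19.8 TPM in HMCES-KO and 3.60 and 4.28 TPM in WT (2.02 ± 0.38). Dnmt3a, a de novo DNA methyltransferase, had 15.1 and 15.8 TPM in HMCES-KO and 6.63 and 6.21 TPM in WT (1.15 ± 0.17). The ETS factor Etv4, a target of FGF signalling, was the lower member, with 190 and 182 TPM in HMCES-KO and 297 and 305 TPM in WT (-0.69 ± 0.08, adjusted p = 0.00039). These 4 calls were stable under activin A. Under BMP4 and LDN193189 the HMCES-KO mean was 94.4% and 112% of the WT mean for Dnmt3a and 130% and 140% for Sall2. It was 261% and 252% for Zic2 and 71.1% and 63.9% for Etv4. Sox3 and Zic5 were also higher, but any 1 library left out ended their calls, with adjusted p from 0.076 to 0.13 for Sox3 and from 0.054 to 0.12 for Zic5.

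The hypoxia and glycolysis genes gave the largest one-sided count among the lists. Of 26 tested, 12 were lower in HMCES-KO and none was higher (46.2% called, beside 12.1% of all genes). The median was -0.53 beside -0.04 over all genes. Pkm, pyruvate kinase, had 441 and 537 TPM in KO1 and KO2, against 1164 and 1454 TPM in WT1 and WT2 (-1.42 ± 0.15, adjusted p = 0.00019). Aldoa, the muscle-type aldolase, had 536 and 564 TPM in HMCES-KO and 1048 and 1295 TPM in WT (-1.08 ± 0.12, adjusted p = 0.00029). The groups were well apart in both genes. Gpi1, glucose phosphate isomerase, had 43.4 and 42.6 TPM in HMCES-KO and 89.8 and 101 TPM in WT. The glucose transporter Slc2a1 had 402 and 463 TPM in HMCES-KO and 697 and 803 TPM in WT (-0.79 ± 0.10), and Slc2a3 had 187 and 217 TPM in HMCES-KO and 327 and 352 TPM in WT. Vegfa, an angiogenic factor induced by hypoxia, had 10.2 and 9.93 TPM in HMCES-KO and 22 and 23.4 TPM in WT. These 6 genes were the stable calls, Pkm and Gpi1 each having 1 pseudogene copy, and 6 to 9 members were called when 1 library was left out. Ldha, lactate dehydrogenase, was not called, with 576 and 625 TPM in HMCES-KO and 539 and 582 TPM in WT (adjusted p = 0.62). It has 4 pseudogene copies, so its level is uncertain. Ddit4, an inhibitor of mTORC1 that hypoxia and amino acid stress induce, had 255 and 249 TPM in HMCES-KO and 431 and 651 TPM in WT (-1.07 ± 0.19). It was the single call among 22 genes of the integrated stress response (4.55% called).

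Of 22 genes of FGF and ERK signalling and its feedback, 7 were called lower, none was called higher and 15 were not called (median -0.36), and 3 to 4 were called without 1 library at a time. The calls made up 31.8% of the list, beside 12.1% of all genes. Spry4, a feedback inhibitor of receptor tyrosine kinases, had 169 and 141 TPM in HMCES-KO, against 414 and 400 TPM in WT (-1.39 ± 0.10, adjusted p = 3.2e-05). Phlda1, a pleckstrin homology domain protein induced by ERK, had 190 and 138 TPM in HMCES-KO and 406 and 411 TPM in WT (-1.33 ± 0.13, adjusted p = 8.6e-05). Spry4, Phlda1 and Etv4 were the stable calls. Dusp6, a phosphatase of ERK, had 203 and 179 TPM in HMCES-KO and 281 and 259 TPM in WT, a call lost without KO2 (adjusted p = 0.062) or WT1 (0.062). The remaining calls, the adaptor Grb2, the inhibitor Spred2 and the kinase Mapk3, were lost without any 1 library, with adjusted p up to 0.073, 0.19 and 0.21. The feedback inhibitor Spry2 was not called, with 610 and 761 TPM in HMCES-KO and 829 and 774 TPM in WT (adjusted p = 0.45). The ligand Fgf4 had 201 and 215 TPM in HMCES-KO and 187 and 192 TPM in WT and was not called. Among 22 immediate early genes, 2 were higher and 3 lower (22.7% called). Klf6 had 43.2 and 57.9 TPM in HMCES-KO and 22.5 and 18 TPM in WT (1.27 ± 0.20), and the orphan receptor gene Nr4a1 had 223 and 232 TPM in HMCES-KO and 342 and 346 TPM in WT (-0.59 ± 0.09), both stable.

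Of 20 p53 targets, 8 were lower and none higher (median -0.43), and 5 to 7 were called without 1 library at a time. The calls made up 40% of the list, beside 12.1% of all genes. Trp53inp1, a pro-apoptotic stress protein, had 16.4 and 20.9 TPM in HMCES-KO, against 54.2 and 50.8 TPM in WT (-1.46 ± 0.18, adjusted p = 0.00043). Btg2, an antiproliferative factor, had 67.3 and 57.4 TPM in HMCES-KO and 127 and 125 TPM in WT (-1.01 ± 0.16). Mdm2, the ubiquitin ligase that degrades p53, had 151 and 161 TPM in HMCES-KO and 223 and 220 TPM in WT (-0.50 ± 0.09). Ccng1, cyclin G1, had 82.8 and 104 TPM in HMCES-KO and 150 and 147 TPM in WT (-0.67 ± 0.12). These 4 were stable. Trp53 itself had 286 and 249 TPM in HMCES-KO and 222 and 224 TPM in WT and was not called (adjusted p = 0.20).

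Of 23 genes of cholesterol synthesis and its control, 7 were lower and none higher (30.4% called, beside 12.1% of all genes, median -0.41). Srebf2, the transcription factor that drives the pathway, had 113 and 99.8 TPM in HMCES-KO and 185 and 173 TPM in WT (-0.75 ± 0.13). Insig1, which retains its processing complex in the endoplasmic reticulum, had 112 and 98.3 TPM in HMCES-KO and 195 and 185 TPM in WT (-0.85 ± 0.13). Both were stable, and 3 to 6 members were called without 1 library at a time. Hmgcs1 had 259 and 242 TPM in HMCES-KO and 306 and 305 TPM in WT and was not called.

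Basement membrane and matrix genes were also lower where they changed, with 6 of 18 lower and none higher (median -0.40, and 3 to 5 calls without 1 library at a time). The matrix calls made up 33.3% of the list, beside 12.1% of all genes. Nid2 and Nid1 encode nidogens, which link laminin to collagen IV. Nid2 had 211 and 238 TPM in HMCES-KO and 410 and 385 TPM in WT (-0.82 ± 0.10, adjusted p = 0.00037), and Nid1 had 19.7 and 22.3 TPM in HMCES-KO and 40.0 and 42.4 TPM in WT (-0.94 ± 0.16). Serpinh1, a collagen chaperone, had 80.5 and 66.2 TPM in HMCES-KO and 126 and 121 TPM in WT (-0.75 ± 0.13). These were stable, though Nid1 has 1 pseudogene copy. Col4a1, a collagen IV chain, had 1.39 and 3.08 TPM in HMCES-KO and 9.61 and 8.01 TPM in WT, and was lost without KO1 (adjusted p = 0.055) or WT1 (0.051). Of 20 visceral and parietal endoderm products, 4 were lower (Col4a1, Col4a2, Srgn and Thbd) and none was stable: 0 to 3 were called without 1 library, the most that the adjusted p reached being 0.055, 0.15, 0.15 and 0.17. The calls among endoderm products made up 20% of their list. Of 10 endoderm transcription factors none was called (median -0.52).

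Markers of other cell types were summed as a check of the label. Summed over 8 listed endoderm markers, levels were 22.2 and 18.8 TPM in HMCES-KO and 36.2 and 36.9 TPM in WT, with Afp and Ttr not listed in the table. Not every marker followed the sum: Apoa1 had 1.92 TPM in KO1 and 0 TPM in KO2, against 0.930 and 0.939 TPM in WT. The longer list of visceral and parietal endoderm products summed the other way, to 4139 and 3611 TPM in HMCES-KO and 3340 and 3172 TPM in WT, of which Apoe made up 3959 and 3325 TPM in HMCES-KO and 3085 and 2957 TPM in WT (not called, adjusted p = 0.094). The part of endoderm cells in the lower matrix genes was not tested. In bulk RNA, fewer cells of a type and less RNA per cell cannot be told apart. Trophectoderm markers summed to 8.45 and 16.6 TPM in HMCES-KO and 12.3 and 12.6 TPM in WT, and mesoderm markers to 7.54 and 12.2 TPM in HMCES-KO and 5.03 and 7.96 TPM in WT. Neural markers summed to 840 and 686 TPM in HMCES-KO and 697 and 685 TPM in WT. Of 10 fibroblast markers 5 were listed, without Col1a2, Col3a1, Postn, Dcn and Lum, and summed to 845 and 764 TPM in HMCES-KO and 664 and 615 TPM in WT. Most of these sums was Vim, which stem cells also express, with 841 and 754 TPM in the HMCES-KO libraries, and Vim was not called (adjusted p = 0.11). The surface protein gene Thy1, which is listed with the fibroblast and feeder markers, was lower in HMCES-KO, with 3.75 and 8.90 TPM against 29.2 and 28.1 TPM in WT (-2.11 ± 0.36, adjusted p = 0.0028).

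Genes of DNA methylation were called in both directions (16.7% called, beside 12.1% of all genes). Of 18 tested, Dnmt3a was higher as given above, and the dioxygenase genes Tet1 and Tet2 were lower, all stable under activin A (median -0.10). Under BMP4 and LDN193189 the HMCES-KO mean was 59.9% and 62.5% of the WT mean for Tet1. It was 94.4% and 112% for Dnmt3a and 98.7% and 97.1% for Tet2. Tet1 had 56.9 and 56.2 TPM in HMCES-KO and 109 and 104 TPM in WT (-0.90 ± 0.13, adjusted p = 0.0013). In base excision repair and the handling of abasic sites, 3 of 23 genes were higher and 3 lower (26.1% called). Hmces was among the lower, and none was stable. Apex1, the main abasic-site endonuclease, had 3423 and 3268 TPM in HMCES-KO and 2813 and 2658 TPM in WT (0.29 ± 0.07, adjusted p = 0.013), lost without KO1 (0.091) or WT2 (0.13). The DNA glycosylase gene Ung had 140 and 156 TPM in HMCES-KO and 136 and 138 TPM in WT and was not called (adjusted p = 0.52). Of 28 genes of the Fanconi, recombination and translesion pathways, 1 was called (3.57%). Brca2 had 27.0 and 28.5 TPM in HMCES-KO and 57.9 and 55.0 TPM in WT (adjusted p = 0.0025, stable).

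Imprinted genes changed in both directions. Peg10, a retrotransposon-derived gene of the placenta, had 259 and 399 TPM in HMCES-KO, against 1140 and 1086 TPM in WT (-1.79 ± 0.30, adjusted p = 0.0027). Phlda2 had 202 and 199 TPM in HMCES-KO and 378 and 354 TPM in WT (-0.87 ± 0.14), and Mest had 84.6 and 98.7 TPM in HMCES-KO and 61.2 and 57.3 TPM in WT (0.62 ± 0.11). All 3 were stable. In all, 2 of 24 imprinted genes outside the Dlk1-Dio3 cluster were higher and 3 lower (20.8% called, beside 12.1% of all genes). Of 4 tested genes of the cluster, 2 were called higher (50%), and neither was stable. Within the cluster, Dlk1 had 9 and 8.08 TPM in HMCES-KO and 3.35 and 2.16 TPM in WT (adjusted p = 0.017), lost without KO1 (0.092), KO2 (0.065) or WT2 (0.14).

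Chaperones and housekeeping machinery changed in both directions. Hspa5, the main chaperone of the endoplasmic reticulum, had 1521 and 1879 TPM in HMCES-KO and 1050 and 1045 TPM in WT (0.69 ± 0.12). Pdia4, a disulfide isomerase of the same compartment, had 662 and 671 TPM in HMCES-KO and 364 and 403 TPM in WT (0.80 ± 0.10). Both were stable, and 2 of 19 genes of that list were higher and 2 lower (21.1% called). With libraries scaled by the median of ratios the count became 6 higher. Of 14 heat shock proteins, 2 were higher and 2 lower (28.6% called). Hsph1 had 83.2 and 94.6 TPM in HMCES-KO and 49.4 and 50.2 TPM in WT. Hspb1, with 1 pseudogene copy, had 751 and 1016 TPM in HMCES-KO and 1552 and 1691 TPM in WT. Of 46 cytosolic ribosomal proteins 3 were higher and 6 lower (19.6% called, beside 12.1% of all genes, with 5.1% higher and 7.03% lower). The 12.1% is not matched for level, so the shares in this paragraph are no result about its lists. None of the 9 ribosomal protein calls was stable. Of 39 respiratory chain subunits 4 were higher and 6 lower (25.6% called), with 0 to 2 higher and 2 to 4 lower without 1 library. Of 31 proteasome subunits 5 were higher and 2 lower (22.6% called), with 3 to 4 higher and 0 to 2 lower without 1 library. The cytochrome oxidase subunit gene Cox8a had 834 and 849 TPM in HMCES-KO and 2197 and 2391 TPM in WT (-1.44 ± 0.14, adjusted p = 8.6e-05, stable). Psma2, a proteasome core subunit, had 484 and 528 TPM in HMCES-KO and 286 and 307 TPM in WT (0.77 ± 0.10, adjusted p = 0.00068, stable). In the cell cycle list 22.2% of genes were called. Of 27 cell cycle genes, 1 was higher and 5 lower, with 0 to 1 higher and 2 to 4 lower without 1 library, among them Mcm2 of the replicative helicase, with 235 and 239 TPM in HMCES-KO and 341 and 329 TPM in WT (-0.50 ± 0.08, stable).

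**Figure D3:**
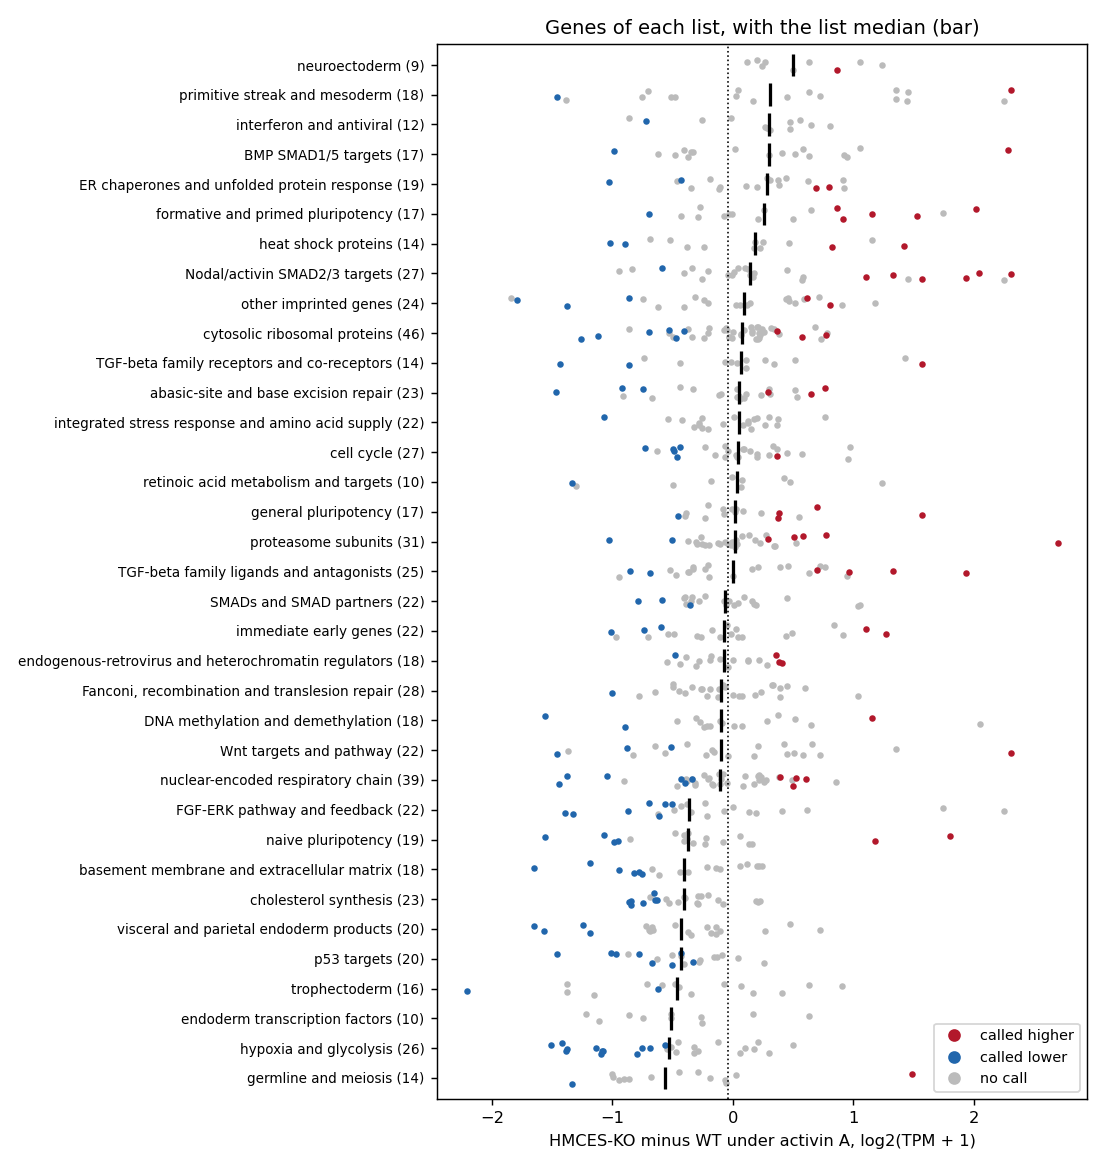
HMCES-KO minus WT under activin A on the log2(TPM + 1) scale (x axis) for every tested gene of each list (rows, with the number tested); red points were called higher, blue lower, grey not called, black bars are list medians and the dotted line is the median of all genes, -0.04. The hypoxia and glycolysis row has 12 blue points and a median of -0.53, while the row of TGF-beta family ligands and antagonists holds called genes on both sides of the line, 4 red and 2 blue.

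The pair of knockout lines gave similar numbers of calls when each was set against the same WT libraries. In a fit with each line as its own group, whose spread comes from the pairs of WT libraries alone, KO1 differed from WT in 1792 genes (14.2%), with 714 higher (5.66%) and 1078 lower (8.55%). KO2 differed from WT in 1774 genes (14.1%), with 739 higher (5.86%) and 1035 lower (8.21%). Since these comparisons share both WT libraries, an error in WT moves both lines the same way. With that limit, 416 genes were called higher in both lines, 616 lower in both, and 4 in opposite directions. Of the 1529 genes called on the mean of both lines, none had the lines on opposite sides of the WT mean, a count that the call itself largely fixes.

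With a different WT library for each line, no WT library is shared. KO1 minus WT1 and KO2 minus WT2 had 146 genes at least 2-fold higher in both and 224 at least 2-fold lower in both, and 47 at least 2-fold apart in opposite directions. The 146 were 31.3% of the genes past 2-fold in KO1 and 25.3% of those in KO2, and the 224 were 31.8% and 32.7%. With the WT libraries exchanged the numbers were 166, 225 and 37. These counts rest on the pseudocount: with 5 in place of 1 added to the TPM, 53 genes were higher in both, 76 lower in both and 1 opposite. Across genes, which are not independent replicates, the correlation of the differences was 0.457 with a pseudocount of 1 and 0.575 with 5. The spread between the lines was somewhat above that between WT replicates: the median absolute difference was 0.227 for KO2 against KO1 and 0.175 for WT2 against WT1. Among 9289 genes with a mean of at least 5 TPM, 256 differed at least 2-fold between the lines and 117 between the WT replicates.

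Set directly against each other, the KO2 and KO1 libraries differed at adjusted p under 0.05 in 65 genes (0.516%), 39 higher in KO2 (0.309%) and 26 lower (0.206%). Each line is 1 library here and the error is the spread between pairs of WT libraries, which may be technical, so the p-values compare these libraries and not the lines. The number of genes was 40 without either WT library, 0 in a fit with no trend of variance on level and 283 by edgeR on recovered reads. For 34 of the 65 the libraries lay on opposite sides of the WT mean. Klhl13, a substrate adaptor of a CUL3 ubiquitin ligase, had 255 TPM in KO2 and 73.2 TPM in KO1, with 64.3 and 64.7 TPM in WT (KO2 minus KO1 1.79 ± 0.13, adjusted p = 0.00092). Rhox6, a homeobox gene of the placenta and germ line, had 68.5 TPM in KO2 and 12.3 TPM in KO1, with 18.2 and 24.7 TPM in WT. Tnfsf9, a ligand of the tumour necrosis factor family, had 19.6 TPM in KO2 and 0.963 TPM in KO1, with 26.2 and 18.4 TPM in WT. In Klhl13 and Rhox6 KO2 lay above WT and KO1 near or below it, and in Tnfsf9 KO1 lay below WT. Islr2, a leucine-rich repeat protein of neurons, had 44.1 TPM in KO2 and 124 TPM in KO1, with 200 and 202 TPM in WT (KO2 minus KO1 -1.47 ± 0.14, adjusted p = 0.0030). Vax2, a homeobox gene of the eye, had 36.1 TPM in KO2 and 186 TPM in KO1, with 28.4 and 20.7 TPM in WT; its call was lost without either WT library (adjusted p = 0.059 in both cases). The other genes with the largest differences were Ccno, Diras1, Fam181b, Arhgdib and Zfp981, higher in KO2, and 2310009B15Rik, Rnf151, Cpe, Polr3gl, AI467606 and Frat1, lower in KO2. Of these, Diras1, Arhgdib and AI467606 kept their calls without either WT library, and the other 8 lost theirs without either one (adjusted p between 0.051 and 0.072).

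Of the 1529 genes called on the mean of both lines, 4 also differed between the KO2 and KO1 libraries: D8Ertd738e, Hmces, Peg10 and Rpl10l, named because they are all of that count. A call on the mean favours genes whose knockout libraries lie close together, so nothing is read from that count. Peg10 was lower in both lines, at -1.48 in KO2 and -2.10 in KO1 on the log2(TPM + 1) scale. Rpl10l, a ribosomal protein retrogene of the germ line, had 1007 TPM in KO2 and 466 TPM in KO1, with 247 and 241 TPM in WT. Its call against WT was lost without KO2 (adjusted p = 0.24), WT1 (0.12) or WT2 (0.14), and it has 1 pseudogene copy. The 4 genes called in opposite directions in the lines were likewise chosen after their values were seen. Dnmt3l, the cofactor of de novo methylation, had 414 TPM in KO2 and 184 TPM in KO1, with 330 and 337 TPM in WT. Khdc3 had 984 TPM in KO2 and 576 TPM in KO1, with 682 and 659 TPM in WT. Fignl2 had 71.7 TPM in KO2 and 138 TPM in KO1, with 102 and 97.9 TPM in WT, and Triml1 had 312 TPM in KO2 and 543 TPM in KO1, with 419 and 449 TPM in WT. In these 4 genes the WT values lie between those of KO1 and KO2.

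**Figure D4:**
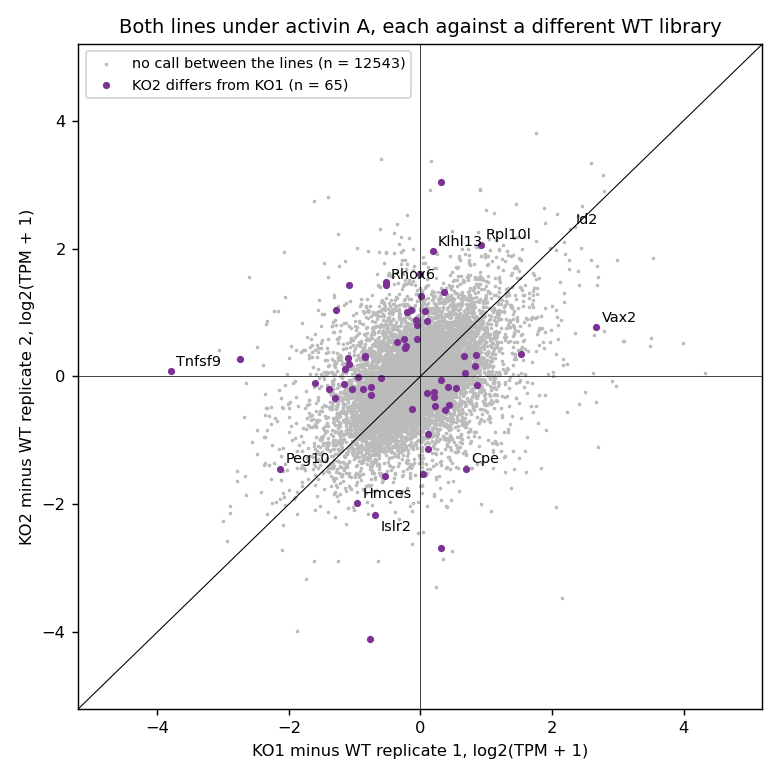
KO1 minus WT1 (x axis) and KO2 minus WT2 (y axis) under activin A for 12608 genes, both on the log2(TPM + 1) scale, with the 65 genes that differed between the KO2 and KO1 libraries in purple and the line of equality in black. Most points lie near the origin, Id2 lies near the line of equality, and Klhl13, Tnfsf9, Vax2 and Islr2 lie away from it.

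Most genes called under activin A had the same direction under the other treatments. The treated calls share an estimate of spread per gene and the same knockout lines, so they are not independent of each other. Each treatment has its own 4 libraries in a table of its own. Levels set across treatments carry that limit, and treatment and table cannot be told apart. Some WT levels differed between pairs of tables. The 22 integrated stress response genes summed to 4284 and 4525 TPM in WT under activin A and 4326 and 4325 TPM under SB431542. The sums were 7921 and 8426 TPM under BMP4 and 7583 and 7863 TPM under LDN193189. The 27 cell cycle genes in WT stayed between 5143 and 5270 TPM in all 4 tables. Of the 1529 genes, 1488 (97.3%) had the same direction under SB431542 and 899 were called the same way, 58.8% of the 1529 and 58.7% of the 1531 SB431542 calls (background 12.1%, with 5.41% of all genes higher and 6.73% lower). Under BMP4, 440 were called the same way (28.8% of the 1529 and 55.1% of 798 calls, background 6.33%, 2.13% higher and 4.2% lower), and under LDN193189, 188 (12.3% and 65.1% of 289 calls, background 2.29%, 0.793% higher and 1.5% lower). Under all 4 treatments 149 genes were called the same way, 45 higher and 104 lower, among them Id2, Klf2, Gdf3, Zic2, Etv4 and Phlda2. The number called under activin A and under no other treatment was 546, a count that does not show that they differ between treatments.

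The difference itself was tested as HMCES-KO minus WT under activin A, minus the mean of the same difference under the other 3 treatments. It passed for 3 genes (0.0238%), 2 of them positive (0.0159%) and 1 negative (0.00793%). BMP4 and LDN193189 make up most of the mean. Their WT levels stood apart for some genes, as given above, so the contrast also compares tables. The contrast sets the same knockout lines against each other across treatments, and the KO2 minus KO1 differences under activin A correlated with those under the other treatments at 0.232 to 0.252 across genes. A fit with a replicate block nested in genotype, which takes this into account, gave 6 genes, and the adjusted p in it was 0.023 for Lefty2, 0.019 for Snrpf and 0.012 for Bmp4. Lefty2 was 1.70 ± 0.25 higher in this contrast (adjusted p = 0.040): its levels were 107 and 102 TPM in HMCES-KO and 143 and 158 TPM in WT under BMP4, 64.2 and 73.7 TPM in HMCES-KO and 98.3 and 96.7 TPM in WT under LDN193189, and 42.6 and 21.6 TPM in HMCES-KO and 32.3 and 33.5 TPM in WT under SB431542. HMCES-KO lay above WT under activin A and below it under BMP4 and LDN193189. Bmp4 stood at -0.67 ± 0.09 in the contrast (adjusted p = 0.035). Its levels were 556 and 578 TPM in HMCES-KO and 598 and 540 TPM in WT under BMP4. Under LDN193189 they were 640 and 593 TPM in HMCES-KO and 636 and 617 TPM in WT. Bmp4 was lower in HMCES-KO under SB431542 too, with 726 and 707 TPM against 1024 and 1009 TPM in WT. Snrpf was 2.61 ± 0.36 higher (adjusted p = 0.035), where WT rested on 2 and 3 reads under activin A. Lefty1 missed the threshold (2.62 ± 0.46, adjusted p = 0.11), with 115 and 261 TPM in HMCES-KO and 235 and 263 TPM in WT under BMP4, and 43.1 and 123 TPM in HMCES-KO and 160 and 155 TPM in WT under LDN193189.

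Among the genes next in order of p, Lefty1, Tmem39a and Anp32a with positive and Gprc5a, Spry4, Plec, Slc2a1 and Dnajb13 with negative values, each had an adjusted p of 0.11. Each of the 3 calls was lost when any 1 activin A library was left out (adjusted p from 0.098 to 0.36 for Snrpf, 0.16 to 0.36 for Lefty2 and 0.082 to 0.36 for Bmp4), and none passed without the trend of variance on level. By edgeR on recovered reads 15 genes passed, with Lefty1, Spry4 and Slc2a1 among them and without Snrpf. Against SB431542 alone, which blocks the receptors that activin A activates, no gene passed in limma, with 477 genes at an unadjusted p under 0.05 and 0 by edgeR on recovered reads.

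The lower hypoxia and glycolysis genes were counted in each table. Of the 26, 12 were lower in HMCES-KO under activin A and 11 under SB431542, where 7.03% and 6.73% of all genes were lower. Under BMP4 and LDN193189 2 were lower in each, where 4.2% and 1.5% of all genes were lower, so fewer genes passed there in general, and the difference between these counts was not tested. The median of the list was -0.53 in both the activin A and the SB431542 table, -0.13 with BMP4 and -0.10 with LDN193189. Their summed levels were 2801 and 3074 TPM in HMCES-KO and 4664 and 5511 TPM in WT under activin A. Under BMP4 they were 3167 and 3292 TPM in HMCES-KO and 4193 and 4228 TPM in WT. Slc2a1 had 402 and 463 TPM in HMCES-KO and 697 and 803 TPM in WT under activin A, against 427 and 417 TPM in HMCES-KO and 374 and 371 TPM in WT under BMP4. Between these tables the WT values of Slc2a1 were further apart than the HMCES-KO values. Other members stayed below WT under BMP4: Pkm had 602 and 649 TPM in HMCES-KO and 1234 and 1303 TPM in WT, and Gpi1 had 49.7 and 54.7 TPM in HMCES-KO and 103 and 101 TPM in WT. There the HMCES-KO mean was 49.3% of the WT mean for Pkm, 51.3% for Gpi1, 76.0% for Aldoa and 87.1% for Slc2a3, against 113% for Slc2a1. Id2 was higher in HMCES-KO in every treated table, with 328 and 583 TPM against 168 and 156 TPM in WT under BMP4 and 79.1 and 110 TPM against 45.4 and 34.9 TPM in WT under LDN193189.

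**Figure D5:**
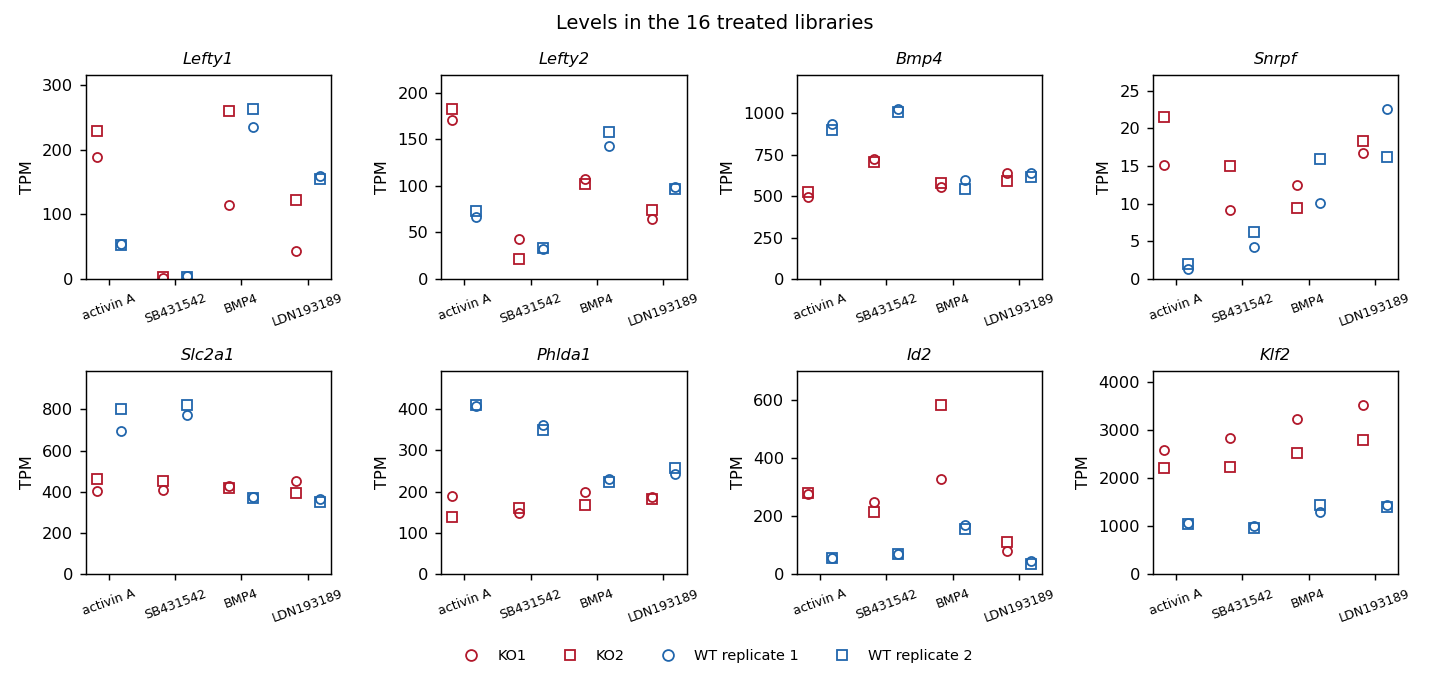
Levels in TPM (y axis) of 8 genes in the 16 treated libraries, by treatment (x axis), with HMCES-KO in red left of WT in blue; circles are KO1 and WT replicate 1, squares KO2 and WT replicate 2. Under activin A Lefty2 lies above WT in HMCES-KO (170 and 182 against 66.9 and 72.5 TPM) and under BMP4 below it (107 and 102 against 143 and 158 TPM), while Klf2 and Id2 lie above WT in each table.

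Untreated cells were measured in a TPM table and a count table of other libraries. The titles do not say which knockout line gave the untreated TPM values. The column names K81 and K82 may stand for a single line, KO8 of the count headers, though this is not stated. The untreated TPM values may therefore not cover both lines. Of the 1529 genes, 1490 were measured in the untreated TPM table, where 939 (63.0%) had the same direction, 317 were called the same way and 98 the opposite way (background 16%, with 5.8% higher and 10.2% lower). In the untreated count table, tested with edgeR, 1049 of 1499 (70.0%) had the same direction, 278 were called the same way and 51 the opposite way (background 11.5%, with 5.41% higher and 6.11% lower). For genes with a pseudogene copy, 88 of 174 (50.6%) had the same direction in the untreated TPM table, against 845 of 1307 (64.7%) without one. The gap between these shares was not tested. Lefty1 was higher in HMCES-KO in the untreated TPM table (1.67, adjusted p = 0.00023) and lower in the untreated count table (-0.62, adjusted p = 0.015). The number of genes called the same way in all 6 tables was 17. The 9 higher and 8 lower genes, all named for completeness, were Acot10, Calm3, Dgke, Etv4, Gdf3, Id2, Klf2, Lars, Nphs1, Phlda2, Ppp2cb, Rbpms, Rhob, Sh3d19, Slc25a4, Ttk and Zic2.

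Genes of most chromosomes were centred near the median of all genes. The lowest chromosome medians among the autosomes and X were -0.18 on chromosome 6, which carries Hmces, -0.16 on chromosome 1 and -0.14 on chromosome 11, and the highest were 0.08 on chromosomes 13 and 17 and 0.07 on chromosome 8. On chromosome 8 the lines parted: the median of 696 genes was 0.19 in KO1, with 64.7% of them above 0, and -0.03 in KO2, with 47.4% above 0. With libraries scaled by the median of ratios the KO1 and KO2 medians became 0.24 and 0.00, so the sign in KO2 rests on the scaling.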

How the data were processed

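RNA-seq libraries of treated and untreated mouse embryonic stem cells were used as deposited. The authors deposited TPM per gene for each treatment and for untreated cells, and whole-number counts for other untreated libraries, per the file headers. Bowtie2 2.3.3, featureCounts 2.0.1, SAMtools 1.9, FastQC 0.11.5, DESeq2 and the build mm10 are named in the submitters' processing notes; strand and multiple mapping are not given in the sources used here. The 12928 genes shared by the 4 treated tables were rescaled to a common sum (at least 99.95% of TPM kept), and genes with 1 TPM or more in at least 2 of 16 libraries were tested as log2(TPM + 1) with limma 3.58.1 (R 4.3.3, trended prior, 8 groups, or 12 groups for single lines), with Benjamini-Hochberg adjustment. A fold change on this scale understates that of low genes. Untreated counts were tested with the quasi-likelihood test of edgeR 4.0.16, with DESeq2 1.42.0 as an alternative. Reads were recovered from the TPM steps for 12927 of 12928 genes (within 0.01 reads of whole numbers) and tested with edgeR, an alternative chosen after seeing the data. In simulated data the main fit called 64% of genes changed by 1 on the log2 scale and 22% of those changed by 0.585. For KO2 against KO1 it was 77% of changes of 2 and 35% of changes of 1.17. A gene that was not called may therefore still differ. Replicate numbers did not pair HMCES-KO with WT (r = 0.0024). In HMCES-KO they are the lines, which pair the treatments (r = 0.227 to 0.323 between treatments). Genes were named by rule: Hmces, the 12 largest calls each way, the 8 largest line differences each way, the 4 lowest p-values in a list, and the genes of highest level that were not called; other called list members were named after their values were seen. Members and lists were chosen with earlier results of these data known. Some genes that this rule names are not reported here.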

Additional observations from a re-analysis of the deposited data

Results flagged for a closer look

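The HMCES-KO difference under activin A departed from the mean of the same difference under SB431542, BMP4 and LDN193189 for 3 genes. Against SB431542 alone no gene passed. Values are on the log2(TPM + 1) scale. Lefty2 stood at 1.70 ± 0.25 (adjusted p = 0.040), Snrpf at 2.61 ± 0.36 (adjusted p = 0.035) and Bmp4 at -0.67 ± 0.09 (adjusted p = 0.035), by limma. Under SB431542 the HMCES-KO mean was 70.4% of the WT mean for Bmp4, 228% for Snrpf and 97.7% for Lefty2. For Bmp4 it was 55.5% under activin A, 99.7% under BMP4 and 98.4% under LDN193189. Both HMCES-KO libraries lay on the same side of both WT libraries under activin A in each gene, as in every gene called against WT. Lefty2 shares sequence with its paralogue Lefty1, Snrpf has 1 pseudogene copy, and the WT libraries held 2 and 3 reads of Snrpf; their part in these values was not tested. Each treatment has a table of its own, and treatment and table cannot be told apart. In WT, all 3 genes had other mean levels under BMP4 and LDN193189 than under activin A and SB431542. Bmp4 had 569 and 627 TPM there against 917 and 1016 TPM, and Snrpf 13.1 and 19.4 against 1.68 and 5.30 TPM. Lefty2 had 150 and 97.5 against 69.7 and 32.9 TPM. The contrast therefore also sets the BMP4 and LDN193189 tables against the activin A table, and the part of the tables was not tested.

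Under activin A, 65 genes differed between the KO2 library and the KO1 library, 39 higher in KO2 and 26 lower, with Klhl13 at 1.79 ± 0.13 for KO2 minus KO1. Each line is 1 library here, and the spread comes from pairs of WT libraries, so the p-values compare these libraries and not the lines.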

How the results depend on the processing

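Leaving out 1 library gave 508 to 708 genes called between HMCES-KO and WT, 0 to 0 between activin A and the other treatments, 1093 to 1146 in KO1, 1058 to 1134 in KO2, 40 to 40 between KO2 and KO1, and -1.99 to -0.95 for Hmces. With 1 library of a group left out, the lone sample is assumed to vary like the other groups. Without the trend of variance on level, 768 genes were called in KO1, 724 in KO2, 0 between KO2 and KO1 and 0 between treatments, and Hmces at -1.47 missed the threshold. Between KO2 and KO1, 41 genes were called with no filter on low values. With a pseudocount of 5, 129 genes moved at least 2-fold the same way against separate WT libraries, where 370 did with a pseudocount of 1, and 1 gene moved the opposite way, where 47 did. EdgeR on recovered reads called 283 genes between the lines and 15 between treatments. The replicate block nested in genotype gave 2145 genes between HMCES-KO and WT and 6 between treatments, and the replicate block across genotypes in the 4 activin A libraries gave 1214; KO and WT libraries share only a number. No called result reversed its direction under the alternatives run; the chromosome 8 median of KO2, which has no test, stood at 0.00 with libraries scaled by the median of ratios and at -0.03 otherwise. The cause of these changes was not tested. Genes with a few reads, such as Tarm1, Mlana and Wnt3, are limited by depth.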
